A study of Mus musculus with 20 samples.

Results

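The response of ACC2-deleted mouse hearts to a high-fat diet was taken from 10 of the 20 left ventricle libraries of the series, chosen by the genotype and diet in the labels. The 5 iKO mice on high-fat diet (HFD; Research Diets D12492) gave libraries RT11, RT13, RT15, RT17 and RT20, and the 5 iKO mice on chow gave RT2, RT4, RT6, RT7 and RT9. All 10 were males with 2 floxed ACC2 alleles and the MerCreMer transgene, a Cre recombinase that tamoxifen switches on. Tamoxifen was injected at 20 mg/kg for 5 days from 8 weeks of age, and the diets began 4 weeks after the last dose and ran for 16 weeks. The 10 remaining libraries come from male littermates with the floxed alleles and no Cre, called WT here, which received the same tamoxifen and the same diets and serve to test whether the diet response differs by genotype. They also entered the filter and the shared estimate of spread in the iKO test, and with the iKO libraries fitted alone fewer genes were called, as given below. Both iKO groups carry the deletion and the Cre, and no mice with the Cre and without floxed alleles are among the samples, so a diet response in iKO hearts cannot be assigned to ACC2 loss rather than to the Cre. The chow libraries of both genotypes carry the numbers up to RT10 and the HFD libraries the numbers after it, so that the diet and anything else that follows this numbering cannot be told apart.

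ACC2, the product of Acacb, sits on the outer mitochondrial membrane and makes malonyl-CoA, which inhibits carnitine palmitoyltransferase 1 and so holds back the entry of long-chain fatty acids into mitochondria. The heart draws most of its energy from fatty acids. When they are plentiful they also act as ligands of the nuclear receptor PPAR-alpha, which with its partner RXR binds paired copies of a short half-site and raises genes for fatty acid uptake, carnitine-dependent import, beta-oxidation and ketone body synthesis, together with Pdk4, a kinase that switches off pyruvate dehydrogenase.

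Promoters of 6 genes of this programme are shown because the half-site, AGGTCA, is what a PPAR response element is built from. Pdk4, Acot1 and Ucp3 are among the genes with the largest rises described below, Cpt1a and Plin2 rose less and hold the half-site, and Hadha shares its promoter region with a partner gene. The sequences are the 250 bases before the RefSeq start on GRCm38.p6, printed along the gene's own strand, with the half-site in capitals (TGACCT where it lies on the opposite strand). Pdk4, a pyruvate dehydrogenase kinase gene, is at chr6:5496279-5496528 on the minus strand, and Acot1, a thioesterase gene, at chr12:84009252-84009501 on the plus strand, and both have none of these letters. Ucp3, which encodes a mitochondrial carrier of the uncoupling protein family, is at chr7:100472741-100472990 on the plus strand and holds 2 half-sites, at 149 and 44 bases before the start. Cpt1a, the liver isoform of the malonyl-CoA-sensitive transferase, is at chr19:3323051-3323300 on the plus strand and holds 1, at 94 bases before the start on the opposite strand. Plin2, a lipid droplet coat protein, is at chr4:86670060-86670309 on the minus strand and holds 1, at 218 bases before the start on the opposite strand. Hadha, the alpha subunit of the mitochondrial trifunctional protein, is at chr5:30154981-30155230 on the minus strand and has none of these letters.
Pdk4: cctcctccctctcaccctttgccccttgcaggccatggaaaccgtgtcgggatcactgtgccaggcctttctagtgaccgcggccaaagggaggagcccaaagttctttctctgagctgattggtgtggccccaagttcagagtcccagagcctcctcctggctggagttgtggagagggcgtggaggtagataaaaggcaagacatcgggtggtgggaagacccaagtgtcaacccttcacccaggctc
Acot1: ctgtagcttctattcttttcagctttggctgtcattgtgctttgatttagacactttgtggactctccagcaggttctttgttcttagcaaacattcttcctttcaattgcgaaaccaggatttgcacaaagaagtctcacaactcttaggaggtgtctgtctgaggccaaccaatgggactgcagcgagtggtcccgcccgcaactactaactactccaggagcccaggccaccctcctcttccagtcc
Ucp3: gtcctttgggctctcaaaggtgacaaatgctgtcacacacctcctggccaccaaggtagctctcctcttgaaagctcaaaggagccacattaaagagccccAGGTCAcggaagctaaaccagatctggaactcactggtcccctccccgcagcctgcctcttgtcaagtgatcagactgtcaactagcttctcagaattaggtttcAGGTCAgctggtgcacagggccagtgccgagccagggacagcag
Cpt1a: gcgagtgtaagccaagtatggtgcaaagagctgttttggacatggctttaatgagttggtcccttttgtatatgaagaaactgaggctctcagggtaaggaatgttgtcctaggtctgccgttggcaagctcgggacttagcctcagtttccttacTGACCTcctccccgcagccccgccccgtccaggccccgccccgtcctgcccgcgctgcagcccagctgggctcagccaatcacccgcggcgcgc
Plin2: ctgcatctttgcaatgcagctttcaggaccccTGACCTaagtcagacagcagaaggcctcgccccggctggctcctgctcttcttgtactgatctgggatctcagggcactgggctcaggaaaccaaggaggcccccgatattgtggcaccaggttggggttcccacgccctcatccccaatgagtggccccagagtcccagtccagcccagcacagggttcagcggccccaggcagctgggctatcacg
Hadha: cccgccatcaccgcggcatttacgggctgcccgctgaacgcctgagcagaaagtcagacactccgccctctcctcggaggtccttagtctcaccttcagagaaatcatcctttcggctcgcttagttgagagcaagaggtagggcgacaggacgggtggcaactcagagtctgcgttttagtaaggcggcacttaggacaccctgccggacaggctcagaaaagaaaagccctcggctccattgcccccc
Hadha and Hadhb, which encode the alpha and beta subunits of the same enzyme, start head to head with 273 bases between their starts, so their promoter windows share 228 bases. Among the PPAR-alpha target genes described below as higher on HFD, 25 have a promoter in the RefSeq table and 7 of these (28%) hold AGGTCA on either strand, namely Ucp3, Cpt1a, Acadvl, Acadm, Cd36, Plin2 and Plin5. The letters occur in 15.8% of the 27025 genes with a promoter in the table and in 12.9% of the 9500 tested genes with one. The shares were 15.3% for the genes called higher in iKO hearts on HFD and 13.5% for those called lower. A direct repeat of AGGTCA with 1 base between the copies, the full PPAR element in its strict form, occurred in 0 of the 25 promoters and in 0.0407% of all promoters. These are matches of letters, not measured binding.

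The libraries were deposited as FPKM, reads scaled for transcript length and for the mapped total, for 25052 genes, of which 12775 reached 0.5 FPKM in at least 5 of the 20 libraries and were tested. Assigned reads, estimated from the steps between low values, ran from 12.6 to 24.2 M in the iKO chow libraries and from 20.3 to 29.4 M in the iKO HFD libraries (exact permutation test over 5 against 5, two-sided, p = 0.341), with RT7 the lowest. The 13 protein-coding genes of mitochondrial DNA took 31.1% ± 1.80 (SD, n = 5) of summed FPKM on chow and 34.2% ± 0.560 on HFD, without overlap (exact permutation p = 0.00794, the smallest that 5 against 5 allows). Each library was therefore rescaled by its median ratio to a common reference, and every value below is in rescaled FPKM unless called deposited. Of the chow libraries, RT4 and RT7 had the lowest mitochondrial shares, 29.1% and 29.2%. RT4 also held transcripts of atrial muscle, with 27.1 FPKM of Myl7 against at most 0.840 in the other iKO libraries, and RT7 held more MHC class II transcripts, with a sum of 280 FPKM against at most 143. Counts that lead the account are therefore also given without RT4 and RT7. Cardiomyocyte transcripts were plentiful in every library, as the label left ventricle implies.

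The targeted gene was checked first. Deposited Acacb FPKM lay between 8.37 and 11.9 in the 10 iKO libraries and between 34.9 and 41.9 in the 10 WT libraries. Esr1, whose ligand-binding domain is part of MerCreMer, lay between 421 and 1617 FPKM as deposited in the iKO libraries and at 2.0 or less in WT. All 20 libraries matched their genotype label. In rescaled FPKM Acacb was 8.17, 8.31, 9.07, 8.48 and 8.24 on chow (RT2, RT4, RT6, RT7 and RT9) and 12, 10.5, 10, 8.85 and 12.2 on HFD (RT11, RT13, RT15, RT17 and RT20), and every later list of values keeps this order. The remaining Acacb transcript thus rose slightly on HFD, with 4 of the 5 HFD libraries above all chow libraries (log2 fold change 0.30, SE 0.07, adjusted p = 0.00957 by limma with Benjamini-Hochberg adjustment). Without RT4 and RT7 the adjusted p was 0.0530. In whole ventricle, transcript from cells that still carry the intact gene and transcript of the recombined allele cannot be told apart. Esr1 did not pass the test between diets (log2 fold change -0.40, adjusted p = 0.535).

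On HFD 328 genes were higher in iKO hearts, 2.57% of the genes tested, and 232 were lower, 1.82%, at an adjusted p under 0.05 in the limma fit over all 20 libraries (560 in all, 4.38%). Most changes were small. The median log2 fold change was 0.34 among the genes that rose and -0.34 among those that fell, and changes beyond 1 on the log2 scale numbered 13 and 4. At an unadjusted p under 0.05, 8.45% of genes were higher and 8.16% lower (16.6% in all), and lists with no call below are read beside these shares. Counts in lists with few calls are read beside the 2.57% and 1.82% given above. Fold changes are differences of mean log2(FPKM + 1), a scale that shrinks the change of genes at a low level. Of the 328 genes, 238 had every HFD library above every chow library, and 145 of the 232 had every HFD library below. Over all genes tested such separation was seen for 2.77% and 1.84%. With each of the 10 iKO libraries left out in turn, 292 of the 560 genes were called in every fit. Without RT4 and RT7 the genes that rose numbered 184, with the iKO libraries fitted alone 213 rose and 129 fell, and without rescaling 211 rose and 1068 fell (1.65% and 8.36%), so the balance between rises and falls rests on the rescaling. The rescaling moved the median log2 fold change over all genes from -0.07 to 0.00.

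**Figure D1:**
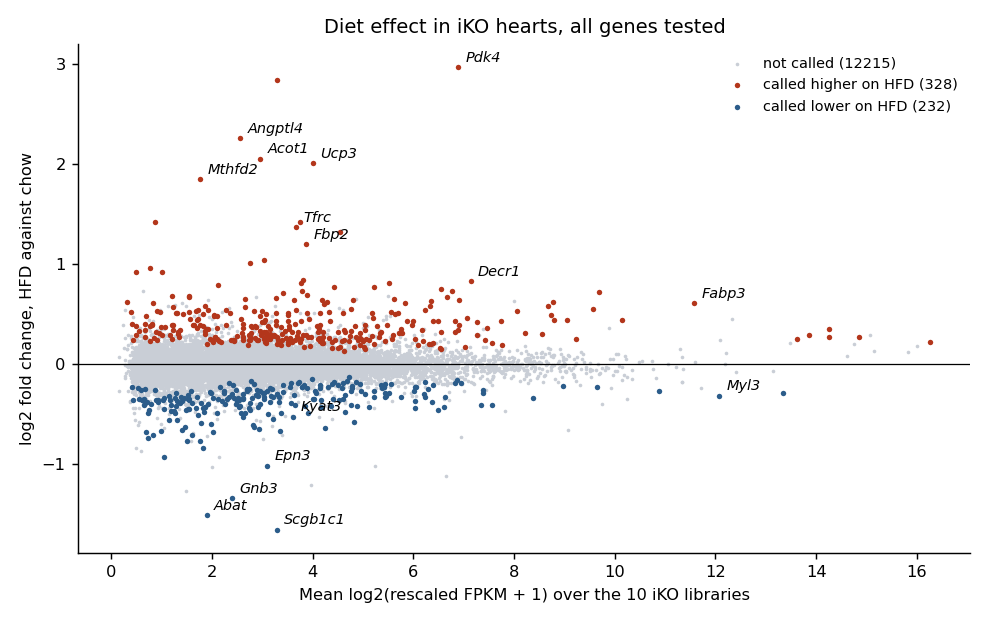
Diet effect in iKO hearts for the 12775 genes tested. The x axis is the mean log2(rescaled FPKM + 1) over the 10 iKO libraries, the y axis is the log2 fold change of HFD against chow, grey points are genes that were not called, and coloured points are the 328 called higher and the 232 called lower. Pdk4, Angptl4, Acot1 and Ucp3 are among the highest points, all above 2.

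Genes that PPAR-alpha is known to activate rose almost as a block. Of 35 tested members of this list, 31 rose and none fell, with a median log2 fold change of 0.55 against 0.00 over all genes tested (without rescaling 30 rose and 1 fell). All 5 of the largest rises in the whole comparison are among them. With 1 library left out at a time, 29 to 33 members were called higher and 0 or 1 lower. Without RT4 and RT7 28 were higher. Fgf21, a further member, did not reach the minimum for testing, with at most 0.262 FPKM. The members were listed from general knowledge with earlier results of these data known, so that their direction is a description.

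Pdk4, whose kinase product shuts pyruvate dehydrogenase and so spares glucose, had the largest change (chromosome 6, 5483351 to 5496309 on GRCm38). Its level was 51.3, 31.8, 26.2, 35.5 and 79.0 on chow and 414, 234, 265, 304 and 513 on HFD. The lowest HFD library lay far above the highest chow library. The means were 44.7 ± 21.3 and 346 ± 116 FPKM (SD, n = 5 each), with a log2 fold change of 2.97 (SE 0.37, adjusted p = 8.18e-05).

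Angptl4 encodes a secreted inhibitor of lipoprotein lipase (chromosome 17). It was at 2.42, 1.51, 0.732, 1.16 and 3.41 on chow and at 12.9, 9.0, 9.02, 11.3 and 20.1 on HFD, again without overlap (log2 fold change 2.26, SE 0.31, adjusted p = 0.000195). Ucp3 was at 10.7, 4.35, 4.75, 6.30 and 11.5 on chow and at 29.8, 20.4, 30.3, 34.5 and 47.0 on HFD. All HFD libraries lay above all chow libraries (log2 fold change 2.01, SE 0.29, adjusted p = 0.000347). RT2 and RT9 had the highest chow values of Pdk4 and Ucp3, and RT20 the highest HFD values.

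The acyl-CoA thioesterases split fatty acyl-CoA into free fatty acid and CoA, Acot1 in the cytosol and Acot2 in mitochondria. Acot1 was at 2.93, 3.22, 2.02, 2.26 and 3.93 on chow and at 16.9, 11.8, 12.7, 16.1 and 17.9 on HFD (chromosome 12). The groups did not overlap (log2 fold change 2.06, SE 0.13, adjusted p = 3.06e-09). Acot2 was at 14.5, 11.8, 13.8, 12.7 and 16.1 on chow and at 39.8, 31.1, 32.7, 34 and 42.4 on HFD, and its HFD libraries too were all higher (log2 fold change 1.32, SE 0.09, adjusted p = 7.43e-09). The 2 genes belong to a cluster of near-identical copies on chromosome 12, so the division of reads between them is uncertain.

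The regulators themselves showed little change. Of 21 tested transcription factors, coactivators and related genes 3 rose and none fell, the rises being Ucp3, Ucp2 (log2 fold change 0.64, adjusted p = 0.00337) and Pparg (0.45, adjusted p = 0.0170), the receptor best known from adipocytes. The Pparg call is lost without RT2 (adjusted p = 0.0535), without RT11, and without RT4 and RT7. Ppara itself, the receptor behind the list, had a log2 fold change of 0.00 (adjusted p = 0.998), with 11.7 ± 1.61 FPKM on chow and 11.8 ± 2.66 on HFD. Esrra, an orphan receptor of oxidative genes, and Ppard, another PPAR, had 0.02 and 0.05. Ppargc1a, the coactivator PGC-1 alpha, was at 32.0, 24.6, 29.0, 31.4 and 27.5 on chow and at 74.1, 73.9, 21.1, 20.7 and 31.4 on HFD. RT11 and RT13 stood far above the rest, while the other 3 HFD libraries lay within or below the chow range, and the gene was not called (log2 fold change 0.38, adjusted p = 0.579).

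**Figure D2:**
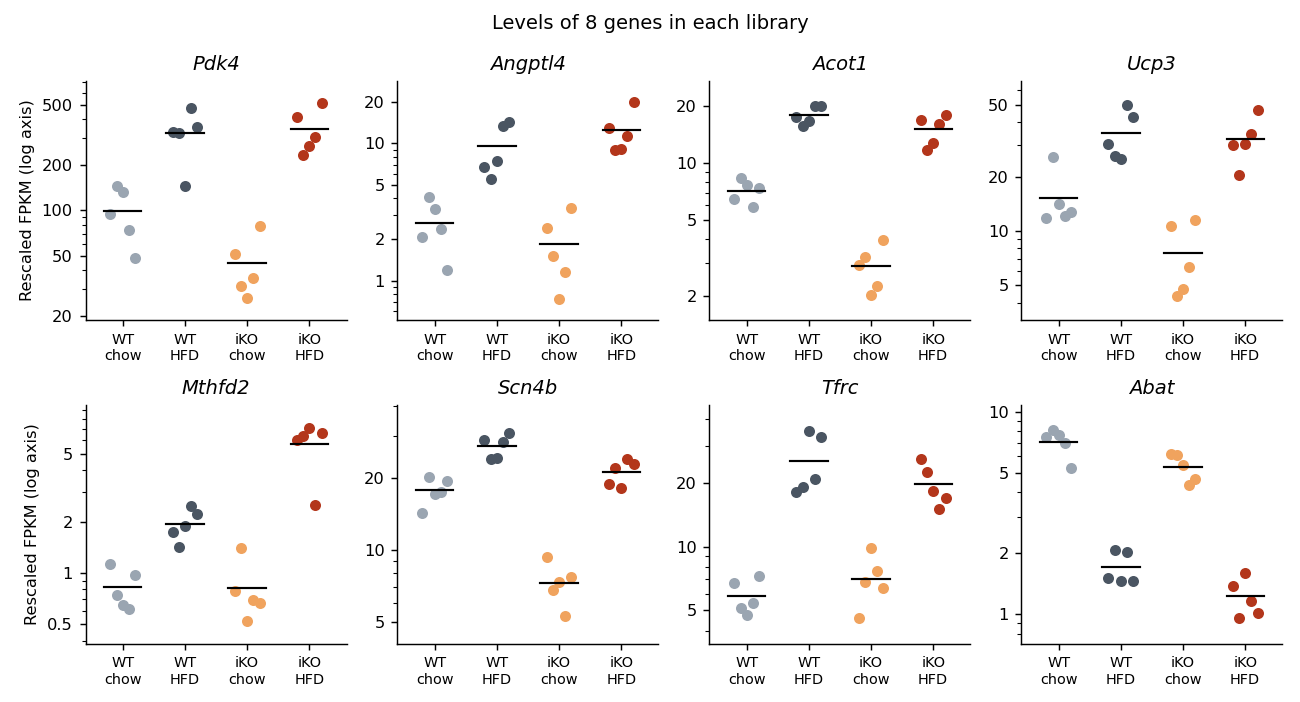
Rescaled FPKM of 8 genes in each of the 20 libraries (log axis), by genotype and diet, 5 mice per group; points are libraries and horizontal bars are group means. In iKO hearts the 5 HFD libraries lie above the 5 chow libraries for Pdk4, Angptl4, Acot1, Ucp3, Mthfd2, Scn4b and Tfrc, and below them for Abat.

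Mitochondrial fatty acid oxidation rose along most of its length. Of 25 tested genes 19 rose and none fell, with a median log2 fold change of 0.43 (without rescaling 19 rose and 2 fell). The count of rises was 19 in every fit that left out 1 library, with 0 or 1 gene lower, and 18 without RT4 and RT7. In all 19, every HFD library was above every chow library. Many of the 25 genes, Cpt1b, Hadha and Decr1 among them, are also in the PPAR-alpha list, so the counts of both lists overlap. The peroxisomal and uptake lists below share members with the PPAR-alpha list too.

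At the carnitine shuttle, which carries long-chain acyl groups across the inner membrane, all 5 listed components and the carnitine transporter rose. Cpt1b, the muscle isoform that malonyl-CoA inhibits, was at 134, 125, 131, 137 and 128 on chow and at 190, 167, 172, 162 and 192 on HFD. Its groups were well apart (log2 fold change 0.43, SE 0.05, adjusted p = 1.41e-05). Cpt1a was at 11.1, 8.02, 8.01, 10.02 and 11.2 on chow and at 15.6, 13.9, 14.6, 13.5 and 14.8 on HFD, likewise apart (0.55, SE 0.08, adjusted p = 0.000253). The carnitine-acylcarnitine carrier Slc25a20 went from 70.8 ± 4.01 to 120 ± 9.49 FPKM (0.75, adjusted p = 4.91e-08) and Cpt2, which rebuilds acyl-CoA in the matrix, from 64.9 ± 2.0 to 101 ± 6.40 (0.63, adjusted p = 3.32e-08). Log2 fold changes were 0.46 for the carnitine acetyltransferase Crat and 0.52 for the carnitine importer Slc22a5.

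Of the acyl-CoA dehydrogenases, which take the first oxidative step, the 4 named for the chain length they act on all rose. The log2 fold changes were 0.49 for the very-long-chain enzyme Acadvl, 0.44 for the long-chain Acadl, 0.25 for the medium-chain Acadm and 0.32 for the short-chain Acads. Differences between these values were not tested, and the Acadm call is lost without RT4 and RT7 (adjusted p = 0.0773). Etfdh, which passes the electrons to ubiquinone, rose by 0.54 (adjusted p = 9.80e-07), whereas Etfa and Etfb, the subunits of the flavoprotein that feeds it, were each at 0.11 and did not pass the test.

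The trifunctional protein, which carries out the last steps for long chains, rose in both subunits. Hadha was at 317, 291, 352, 342 and 361 on chow and at 534, 493, 475, 456 and 532 on HFD (log2 fold change 0.58, SE 0.06, adjusted p = 7.97e-07). Hadhb went from 973 ± 59.8 to 1326 ± 77.2 FPKM (0.45, adjusted p = 4.35e-06). Neither gene's groups overlapped. The medium- and short-chain steps were mixed: the thiolase Acaa2 rose by 0.63 and the dehydrogenase Hadh by 0.31, while the short-chain hydratase Echs1 (-0.13) and the dehydrogenase Hsd17b10 (-0.17) did not pass the test.

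Decr1, Eci1 and Eci2 handle the double bonds of unsaturated fatty acids. Decr1, a 2,4-dienoyl-CoA reductase, had the largest change of the 25 genes. It was at 107, 91.9, 117, 99.5 and 110 on chow and at 201, 189, 174, 174 and 202 on HFD, with the lowest HFD library well above the highest chow library (log2 fold change 0.83, SE 0.06, adjusted p = 8.75e-09). Eci2 rose by 0.43 and Eci1 by 0.30.

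**Figure D3:**
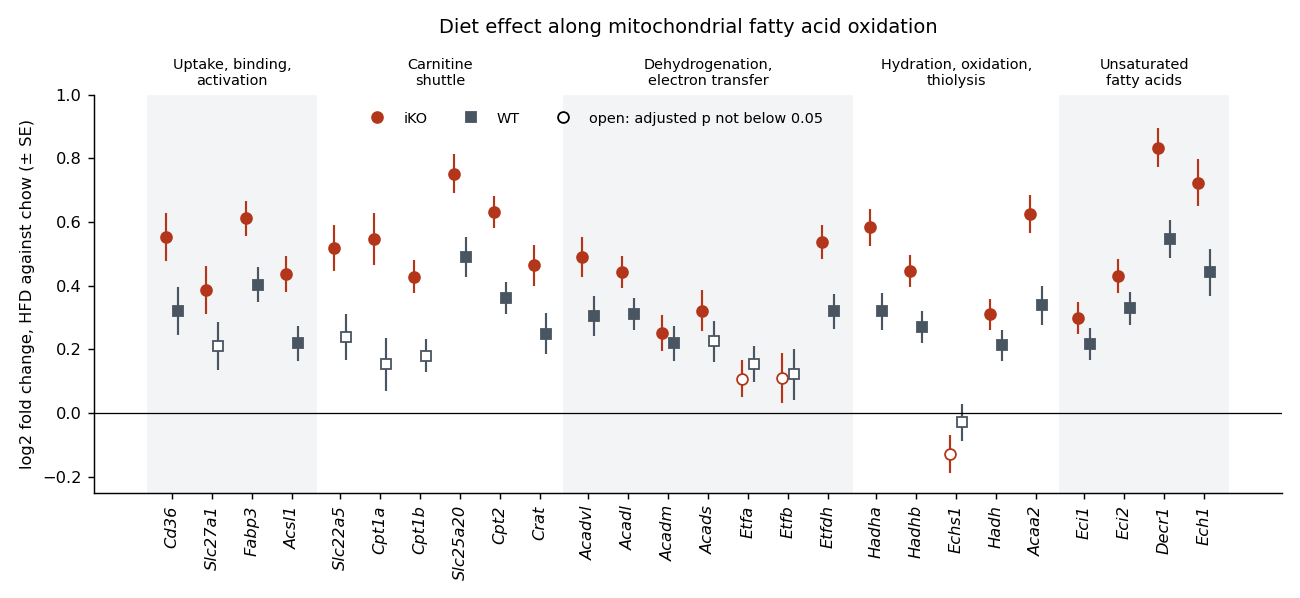
Log2 fold change of HFD against chow (± SE of the limma fit) for genes of mitochondrial fatty acid oxidation, ordered along the pathway, in iKO and in WT hearts. Filled symbols passed the test at an adjusted p under 0.05. Among the genes plotted the iKO points run from Echs1 at -0.13 to Decr1 at 0.83 (Hsd17b10 is not plotted), with the carnitine shuttle between 0.43 and 0.75.

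In peroxisomes, which shorten very-long-chain fatty acids and break down hydrogen peroxide, 10 of 21 genes rose and none fell (median 0.15, and 7 and 2 without rescaling). The largest changes were those of Ech1, a dienoyl-CoA isomerase (log2 fold change 0.72, adjusted p = 1.25e-06), Pex11a, a factor of peroxisome division (0.66, adjusted p = 1.01e-05), Ehhadh (0.52, adjusted p = 0.0167), the half-transporter Abcd3 (0.46) and catalase, Cat (0.44, 71.4 ± 5.67 to 96.8 ± 5.17 FPKM). Ehhadh loses its call without RT20 (adjusted p = 0.0528) and without RT4 and RT7, among other settings. With 1 library left out at a time 6 to 10 genes of this list were called higher, and without RT4 and RT7 6 were higher and 1 lower. Ephx2, which hydrolyses fatty acid epoxides and is found in peroxisomes and cytosol, rose by 0.73 (83.9 ± 4.28 to 140 ± 6.55 FPKM, adjusted p = 5.48e-09).

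Uptake and activation of fatty acids changed in part. Of 21 genes 8 rose and none fell (8 and 2 without rescaling), and apart from Angptl4, Acot1 and Acot2 the rises were the binding protein Fabp3, the translocase Cd36, the acyl-CoA synthetase Acsl1, the transport protein Slc27a1 and Fabp4. With 1 library left out at a time 8 to 10 genes were called higher and 0 or 1 lower. Fabp3, among the most abundant transcripts of the heart, was at 2599, 2340, 2544, 2343 and 2534 on chow and at 3873, 3830, 3547, 3666 and 3973 on HFD. The HFD libraries stood far above the chow libraries (log2 fold change 0.61, SE 0.05, adjusted p = 1.95e-07). Cd36 went from 635 ± 87.9 to 927 ± 76.7 FPKM (0.55, adjusted p = 7.36e-05) and Acsl1 from 183 ± 14.4 to 248 ± 16.9 (0.44, adjusted p = 3.19e-05). Lipoprotein lipase, Lpl, which releases fatty acids from circulating triglyceride, was not called (-0.16, adjusted p = 0.201), nor was the VLDL receptor Vldlr (0.26, adjusted p = 0.0663).

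Fabp4 is also a marker of capillary endothelium. It rose by 0.45 (384 ± 76.0 to 517 ± 36.0 FPKM, adjusted p = 0.0100), a call that is lost without RT4 and RT7 (adjusted p = 0.0612). The summed level of 12 endothelial markers ran from 527 to 743 FPKM on chow and from 744 to 827 on HFD (exact permutation p = 0.00794). Fabp4 makes up most of that sum. Of the other 11 markers 1 rose (Flt1, 0.26) and none fell, with Pecam1 at 0.00 and Cdh5 at 0.10. By log2 fold change 10 of the 12 markers were above 0 and 2 below. At an unadjusted limma p under 0.05, 4 of the 12 were higher and 0 lower, against 8.45% and 8.16% of all genes tested. In bulk tissue, more cells of a type and more RNA per cell cannot be told apart.

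Genes of lipid droplets and triglyceride turnover followed, with 9 of 24 higher, none lower and a median of 0.07. Plin5, which tethers droplets to mitochondria in oxidative tissue, was at 33.7, 28.7, 33.5, 35.8 and 36.0 on chow and at 82.3, 51.0, 56.9, 45.0 and 69.1 on HFD. All HFD libraries were above all chow libraries, with RT11 and RT20 highest (log2 fold change 0.81, SE 0.13, adjusted p = 0.000715). Plin2 rose by 0.55 (21.4 ± 1.49 to 31.8 ± 2.39 FPKM). Genes of both directions of flux were among the rises: Lipe, hormone-sensitive lipase, rose by 0.70, and Gpam and Agpat3, acyltransferases that build triglyceride and phospholipid precursors, by 0.66 and 0.51. Cidea, a droplet fusion protein also used as a marker of brown fat, rose by 0.53. Of 8 white fat markers, 6 did not reach the minimum for testing, with at most 1.73 FPKM of Cfd, 0.413 of Cidec, 0.308 of Adipoq, 0.158 of Plin1, 0.132 of Retn and 0.0297 of Lep in the iKO libraries. Cfd reached its highest values on chow, in RT4 (1.73) and RT9 (0.975), and was at 0.287 or less on HFD. Lipe and Pparg, the 2 tested members of that marker list, both rose. The summed level of all 8 ran from 13.9 to 18.8 FPKM on chow and from 20.5 to 28.2 on HFD. Lipe and Pparg make up most of that sum in every iKO library, so it mainly repeats their rises.

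In malonyl-CoA metabolism and fatty acid synthesis 4 of 18 genes rose and none fell (median -0.04, and 4 and 2 without rescaling). Mlycd, which degrades malonyl-CoA, was at 31.6, 25.8, 26.2, 32.8 and 31.2 on chow and at 45.7, 36.6, 41.9, 42.4 and 46.8 on HFD. The groups did not overlap (log2 fold change 0.52, SE 0.09, adjusted p = 0.000932). Me1, the cytosolic malic enzyme, rose by 0.53 (38.0 ± 2.56 to 55.2 ± 3.28 FPKM, adjusted p = 2.68e-07). Acaca, which encodes the other acetyl-CoA carboxylase ACC1, was at 2.40 ± 0.279 and 1.96 ± 0.0510 FPKM and was not called (-0.20, adjusted p = 0.176), and neither were Fasn (-0.17) and Scd1 (-0.16). Scd4, a heart-expressed stearoyl-CoA desaturase, was at 1.04, 0.993, 1.16, 0.665 and 1.43 on chow and at 2.89, 1.62, 1.83, 1.40 and 2.0 on HFD. RT17 on HFD lay just under RT9 on chow, and the rise (0.51, SE 0.12, adjusted p = 0.0167) loses its call without RT7 (adjusted p = 0.0558) or RT11.

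Of 22 tested genes of sterol synthesis and uptake 5 fell and 1 rose. Idi1, an enzyme of isoprenoid synthesis, fell from 3.2 ± 0.315 to 2.12 ± 0.176 FPKM (log2 fold change -0.43, adjusted p = 0.000376). Srebf2, the transcription factor of the pathway, fell by 0.23 on the log2 scale (adjusted p = 0.0132, and 0.139 without RT4 and RT7). Mvk, mevalonate kinase, fell (-0.34) and Insig1, which retains that factor in the endoplasmic reticulum, rose (0.42), but both calls are lost without RT7, among other libraries, with adjusted p of at most 0.0833 and 0.123. Without RT4 and RT7 the list had 2 falls and no rise.

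**Figure D4:**
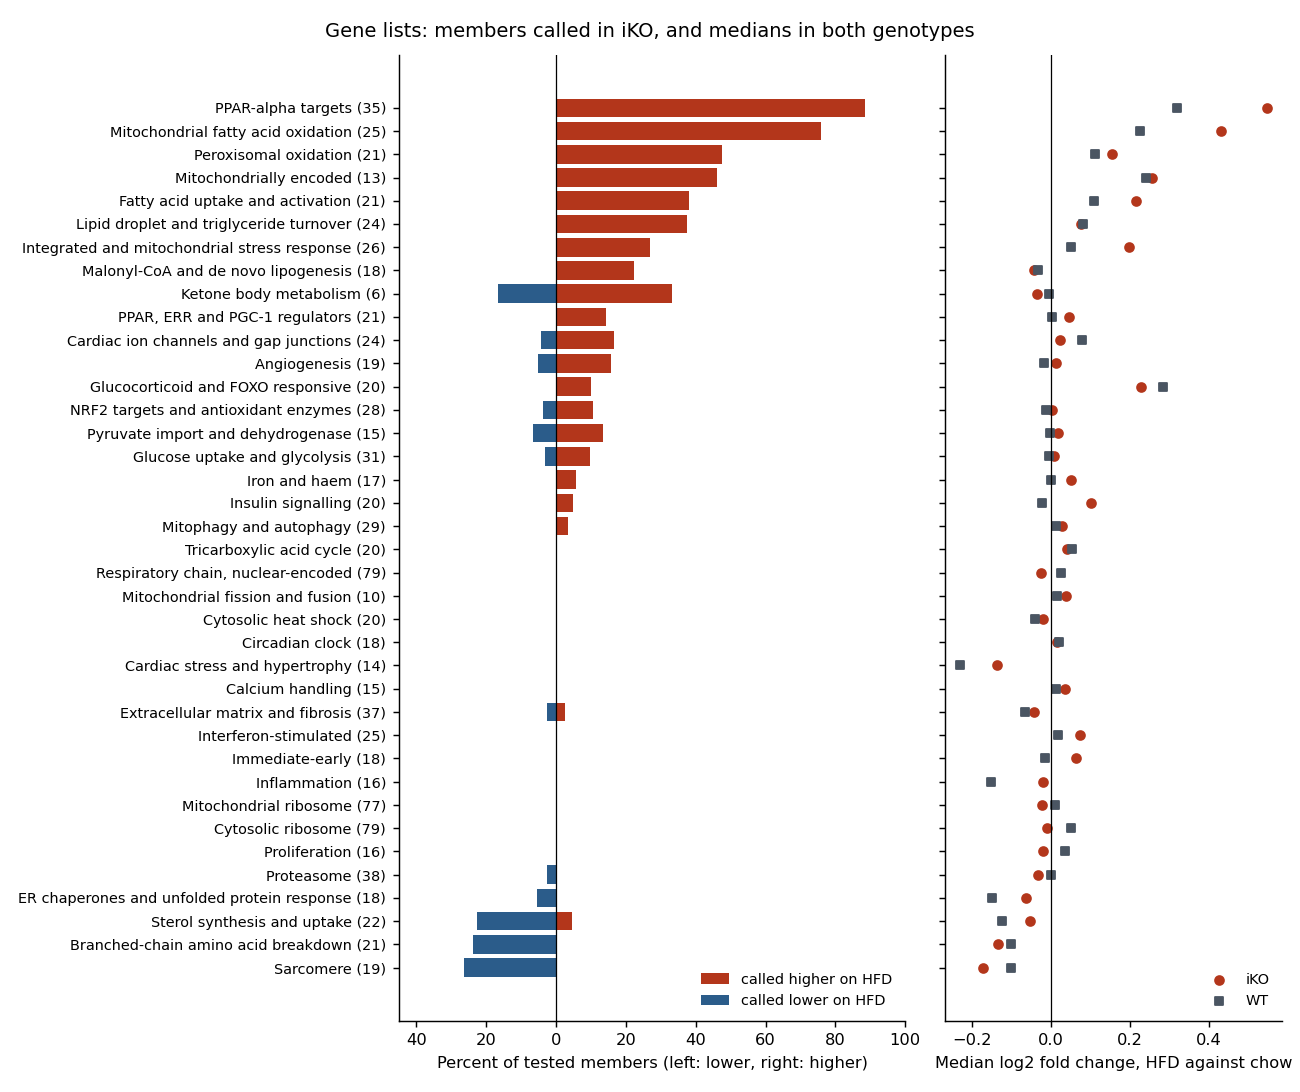
Gene lists in iKO hearts on HFD against chow. The left panel gives the percent of each list's tested members called higher (right of 0) and lower (left of 0) at an adjusted p under 0.05, and the right panel the median log2 fold change of each list in iKO and in WT hearts. PPAR-alpha targets (31 of 35) and mitochondrial fatty acid oxidation (19 of 25) have the largest shares of rises among the lists plotted. These lists share many members.

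On the glucose side the enzymes hardly moved, apart from a few. Of 31 genes of glucose uptake, glycolysis and glycogen 3 rose and 1 fell (median 0.01, and 2 and 4 without rescaling), and neither glucose transporter passed the test (Slc2a4 -0.19, Slc2a1 -0.20). Fbp2, the muscle isoform of fructose-1,6-bisphosphatase, which runs the phosphofructokinase step backwards, was at 8.28, 7.10, 10.3, 8.73 and 8.85 on chow and at 21.5, 20.7, 20.1, 20.4 and 23.1 on HFD. The HFD libraries were nearly equal to each other and all above the chow libraries (log2 fold change 1.21, SE 0.07, adjusted p = 1.52e-09). Pfkl, the liver isoform of phosphofructokinase, rose by 0.33 (adjusted p = 0.000670). Gys1 (0.25) and Ldhb (-0.23) passed the test with all libraries, and lost their calls without RT11 (adjusted p = 0.137) and RT13 (adjusted p = 0.0734), among others.

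Around pyruvate 2 of 15 genes rose and 1 fell (1 and 5 without rescaling). Besides Pdk4 these were the kinase Pdk1 (log2 fold change 0.26, adjusted p = 0.0111, and 0.137 without RT4 and RT7) and pyruvate carboxylase, Pcx, which was at 6.72, 6.29, 6.71, 7.89 and 6.31 on chow and at 4.70, 4.52, 5.19, 4.06 and 5.22 on HFD. Every HFD library had less Pcx than every chow library (-0.44, SE 0.07, adjusted p = 0.000265). The subunits of the pyruvate dehydrogenase complex itself lay between -0.08 (Pdhb) and 0.08 (Pdha1), and none was called.

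Of 6 tested ketone body genes 2 rose and 1 fell. Oxct1, the transferase with which heart muscle burns ketone bodies, was at 399, 352, 397, 345 and 379 on chow and at 324, 285, 295, 301 and 275 on HFD. The chow libraries were all higher (log2 fold change -0.34, SE 0.05, adjusted p = 0.000293). Acat1, the thiolase next to it, rose by 0.24 (adjusted p = 0.0116, and 0.121 without RT4 and RT7), and the dehydrogenase Bdh1 was at -0.06.

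A group of stress-response genes also rose. The integrated stress response raises genes of amino acid synthesis and one-carbon metabolism through ATF4 and its relative ATF5, and in heart it is known as an answer to impaired mitochondria. Of 26 tested genes 7 rose and none fell, with a median log2 fold change of 0.20 (6 and 1 without rescaling). With 1 library left out at a time the count was 5 to 10, and without RT4 and RT7 it was 7.

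Mthfd2, a mitochondrial folate enzyme that adult tissue hardly makes, had the largest change of the group (chromosome 6, 83305691 to 83325908). It was at 0.783, 1.41, 0.524, 0.692 and 0.670 on chow and at 6.0, 6.38, 7.11, 2.51 and 6.64 on HFD. RT17 stood below the other 4 HFD libraries but above every chow library (log2 fold change 1.85, SE 0.18, adjusted p = 1.30e-06). Atf5 was at 15.9, 17.5, 15, 15 and 14.3 on chow and at 26.2, 28.4, 30.9, 20.8 and 31.4 on HFD, with RT17 again lowest on HFD and still above the chow libraries (0.78, SE 0.08, adjusted p = 2.19e-06). Asns, asparagine synthetase, was at 0.841 ± 0.211 and 1.96 ± 0.341 FPKM (0.69, adjusted p = 0.000424). Trib3, which encodes a pseudokinase under ATF4 control, was at 1.46 ± 0.258 and 2.52 ± 0.340 FPKM (0.52, adjusted p = 0.000301).

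Aldh1l2, a further mitochondrial folate enzyme, rose by 0.54 (adjusted p = 0.00660). Phgdh, the first enzyme of serine synthesis, rose by 0.38 and the chaperonin Hspd1 by 0.22. The Phgdh call is lost without RT6 (adjusted p = 0.0526) or RT20, and that of Hspd1 without any of 6 libraries, with an adjusted p of at most 0.0804 (without RT13). Atf4 and Ddit3, regulators at the head of this response, had log2 fold changes of 0.18 and 0.20 and were not called. Of 20 genes of cytosolic heat shock limma called none (1 at an unadjusted p under 0.05), and of 18 genes of the endoplasmic reticulum response 1 fell, the chaperone cofactor Sdf2l1 (-0.59, adjusted p = 0.000917).

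The transcripts of mitochondrial DNA rose in part while those of the nucleus for the same complexes did not. Of 13 mitochondrially encoded genes 6 rose, with a median of 0.26. The complex I subunit mt-Nd2 was at 18127, 14759, 19033, 15322 and 19411 on chow and at 23250, 22062, 21180, 21468 and 21938 on HFD. RT4 and RT7 were the lowest, and all HFD libraries were above all chow libraries (log2 fold change 0.35, SE 0.07, adjusted p = 0.00412). Without RT4 and RT7 1 of the 13 was called and the median was 0.08, so the size of this shift rests on those libraries. The calls of mt-Nd4, mt-Nd5 and mt-Co1 are lost without RT7 or RT11, with adjusted p of at most 0.0559, 0.0921 and 0.130. That of mt-Nd5 is also lost without RT2, RT4, RT15 or RT20, and that of mt-Co1 in most fits that leave out 1 library. Because 6 nuclear pseudogene copies of mitochondrial genes on chromosome 1 hold a further 22.6% to 24.4% of summed FPKM in the iKO libraries, the division of reads between the 2 sets is uncertain.

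Limma called none of 79 nuclear-encoded respiratory chain genes (median -0.03), none of 20 genes of the tricarboxylic acid cycle (0.04) and none of 10 genes of mitochondrial fission and fusion. At an unadjusted p under 0.05 these lists held 3, 2 and 1 genes. Without rescaling 20 respiratory chain genes, 3 cycle genes and 2 fission and fusion genes were called lower. After scaling to the sum of nuclear genes 1 respiratory chain gene and 2 cycle genes were called higher and 1 fission and fusion gene lower. Among 29 genes of mitophagy and autophagy 1 rose, near the 2.57% over all genes tested. It was Phb2 (0.21, adjusted p = 0.0212), and its call is lost without RT20 (adjusted p = 0.0648) or RT11. Park2, which encodes the ubiquitin ligase parkin, was at 2.29 ± 0.209 and 2.46 ± 0.494 FPKM (log2 fold change 0.07, SE 0.08, adjusted p = 0.753), and Pink1, the kinase that recruits it, at 234 ± 21.8 and 243 ± 19.1 (0.06, SE 0.06, adjusted p = 0.711).

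Enzymes that break down branched-chain amino acids moved down. Of 21 genes 5 fell and none rose, with a median of -0.13. They were Abat, Acadsb, Bckdhb, Ivd and Mccc1. Abat, the transaminase of gamma-aminobutyrate and of an intermediate of valine breakdown, was at 6.20, 6.08, 5.43, 4.33 and 4.67 on chow and at 1.38, 0.954, 1.60, 1.16 and 1.01 on HFD (chromosome 16). The groups were far apart, and this was the second-largest fall of the whole comparison among the genes named by size (log2 fold change -1.51, SE 0.11, adjusted p = 7.58e-09).

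The other 4 fell less. Acadsb, the dehydrogenase of short branched chains, went from 74.0 ± 8.54 to 56.9 ± 3.98 FPKM (-0.37, adjusted p = 0.00129), Bckdhb, a subunit of the branched-chain ketoacid dehydrogenase, from 23.0 ± 3.16 to 17.8 ± 1.86 (-0.35, adjusted p = 0.0104), and Ivd, the dehydrogenase of the leucine branch, from 109 ± 10.2 to 87.3 ± 9.64 (-0.32, adjusted p = 0.00794). Without rescaling 16 of the 21 were called lower, and without RT4 and RT7 9 were. With the iKO libraries fitted alone 2 were.

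Ion channel genes held 1 of the largest rises. Scn4b, a beta subunit of the cardiac sodium channel, was at 9.30, 6.79, 7.32, 5.30 and 7.65 on chow and at 18.8, 21.9, 18.1, 24 and 22.8 on HFD (chromosome 9, 45138395 to 45154152). No value of the groups overlapped (log2 fold change 1.43, SE 0.11, adjusted p = 4.78e-08). Of 24 channel and gap junction genes 4 rose and 1 fell. Scn4a, the alpha subunit best known from skeletal muscle, rose from 4.03 ± 0.371 to 6.93 ± 0.784 FPKM (0.65, adjusted p = 8.18e-05) and the potassium channel Kcnj3 by 0.44 (adjusted p = 0.00473). Kcnip2, the subunit that sets the transient outward current, fell from 83.0 ± 7.74 to 65.9 ± 3.75 (-0.32, adjusted p = 0.00412). The rise of Kcnv2 (0.39) loses its call without RT11 (adjusted p = 0.103), among others. Limma called none of 15 genes of calcium handling (4 at an unadjusted p under 0.05, and 2 called lower without rescaling).

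Several sarcomere genes fell. Of 19 genes 5 were called lower and none higher (median -0.17, and 10 lower without rescaling), namely the light chains Myl2 and Myl3, Tnnc1, Myoz2 and Myom2. Myl3 was at 4859, 4469, 4936, 5007 and 4792 on chow and at 4245, 3448, 3795, 3907 and 4015 on HFD. The groups did not overlap (log2 fold change -0.31, SE 0.07, adjusted p = 0.00642). The other 4 calls are lost without RT6 or RT7 and without further libraries, with adjusted p of at most 0.0861 (Myl2), 0.0780 (Tnnc1), 0.106 (Myoz2) and 0.105 (Myom2), and the list's count ran from 1 to 7. The summed level of 12 cardiomyocyte markers, Myl2 and Myl3 among them, ran from 31120 to 36854 FPKM on chow and from 28726 to 32165 on HFD (exact permutation p = 0.0238). Of these markers 2 fell and none rose, and the part of this sum in the sarcomere result was not tested. Myl2, already counted among the sarcomere falls, is the largest member of the sum. By log2 fold change 9 of the 12 markers were below 0 and 3 above. Ryr2 went the other way from the sum, at 80.16 to 87.41 FPKM on chow and 91.59 to 104.5 on HFD.

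Limma called none of 14 genes of cardiac stress (median -0.14), of which 5 were lower at an unadjusted p under 0.05. The median was 0.01 without RT4 and RT7, and 2 were called lower without rescaling. Nppa, Nppb and Myh7, which a stressed ventricle makes in excess, had log2 fold changes of -1.12 (adjusted p = 0.216), -0.72 (0.221) and -1.01 (0.136). Nppb was at 208, 289, 157, 98.4 and 108 on chow and at 80, 153, 70.6, 98.3 and 93.5 on HFD. RT4, the library with atrial transcripts, was the highest, and the groups overlapped.

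In the extracellular matrix 1 of 37 genes rose and 1 fell, near the 2.57% and 1.82% over all genes tested. The fall was that of the collagen Col3a1 (log2 fold change -0.64), and its call is lost in every fit that leaves out 1 iKO library except the one without RT9, with an adjusted p of at most 0.124 (without RT20). Without RT4 and RT7 no gene of the list was called. The summed level of 11 fibroblast markers was high in RT2 and RT4 on chow (1299 and 1415 FPKM) and in RT13, RT15 and RT17 on HFD (1415, 1277 and 1317), and 715 to 863 in the other 5 iKO libraries, so it did not follow the diet (exact permutation p = 0.937). Limma called none of 25 interferon-stimulated, 16 inflammatory, 18 immediate-early or 16 proliferation genes (1, 0, 0 and 2 at an unadjusted p under 0.05). The summed macrophage markers ran from 190 to 264 FPKM on chow and from 155 to 232 on HFD (exact permutation p = 0.167).

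Tfrc, the transferrin receptor through which cells import iron, was the 1 gene of 17 in iron and haem metabolism that was called. It was at 4.61, 6.84, 9.81, 7.63 and 6.38 on chow and at 25.9, 22.5, 18.3, 15.1 and 16.9 on HFD (chromosome 16). Every HFD library lay above every chow library (log2 fold change 1.37, SE 0.20, adjusted p = 0.000357).

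The 4 largest falls among the genes that passed the test were those of Scgb1c1, Abat, Gnb3 and Epn3. Scgb1c1, a member of the secretoglobin family, was at 14, 15.3, 17, 21.7 and 14.5 on chow and at 6.11, 2.99, 6.17, 3.92 and 4.02 on HFD. The groups were widely separated (log2 fold change -1.65, adjusted p = 9.07e-08). Gnb3, a beta subunit of heterotrimeric G proteins, was at 7.77, 8.09, 7.42, 7.35 and 6.31 on chow and at 2.79, 1.25, 3.22, 2.31 and 2.35 on HFD, also without overlap (-1.34, adjusted p = 2.12e-06). Epn3, an epsin of endocytosis, fell from 11.2 ± 1.15 to 5.19 ± 1.71 FPKM (-1.01, adjusted p = 7.54e-05).

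Further genes among the 15 largest rises were Impa2, an inositol monophosphatase (log2 fold change 1.04, adjusted p = 2.79e-08), Lgals4, a galectin (1.01, adjusted p = 0.000301), and Btnl9, a butyrophilin-like gene (0.84, adjusted p = 8.77e-07). Among the 15 largest falls were Ramp1, the partner of the CGRP receptor (-0.77), and Gcat, an enzyme of threonine breakdown (-0.68). The tendon transcription factor Scx (-0.66) and the slow skeletal troponin Tnnt1 (-0.64) were also among them. The Scx call is lost without RT4 and RT7.

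A few further lists held few calls, to be read beside the 2.57% higher and 1.82% lower over all genes tested. Among 28 antioxidant genes 3 rose and 1 fell, the fall being that of the peroxide-reducing Gpx1 (log2 fold change -0.43, adjusted p = 0.000932), while Sod1 (0.19) loses its call without RT20 (adjusted p = 0.107), among others. Of 20 genes that glucocorticoids or FOXO factors raise, 2 rose, Angptl4 and the ubiquitin ligase gene Fbxo32 (0.38, adjusted p = 0.00779), and of 20 insulin signalling genes 1 rose, Mtor (0.27, adjusted p = 0.00134). The angiogenic list had 3 rises of 19 and 1 fall. The fall was that of the peptide Apln (-0.40, adjusted p = 0.00213), and the rises of Egln3, Flt1 and Hif1a are all lost without RT4 and RT7. Limma called none of 18 clock genes, 79 cytosolic and 77 mitochondrial ribosomal protein genes (3, 2 and 4 at an unadjusted p under 0.05), and without rescaling 1, 2 and 9 were called lower.

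Whether iKO hearts answered the diet differently from WT hearts was tested as the difference between the diet effects, which share no library. In WT hearts 327 genes were called (2.56%), 178 higher (1.39%) and 149 lower (1.17%). Of the 327, 187 were also called in iKO hearts, all in the same direction, which is 33.4% of the iKO calls and 57.2% of the WT calls. Of the 560 genes called in iKO, 539 (96.2%) had the same sign in WT, against 67.0% of all genes tested. Of the 328 genes that rose in iKO hearts, 294 had the larger value in iKO, and of the 232 that fell 198 had the larger fall there. The choice of genes by their iKO call favours these counts.

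For the difference itself limma called 0 of 12775 genes, and 537 (4.2%) had an unadjusted p under 0.05, with a smallest adjusted p of 0.0982 for Vwa8 and Scd4. A count called in iKO and not in WT therefore does not show a difference. Vwa8, a mitochondrial ATPase, had a log2 fold change of 0.78 in iKO and 0.36 in WT. Scd4 had 0.51 in iKO and -0.45 in WT (adjusted p = 0.0533 in WT). Without RT17, 4 genes were called for the difference (Atf5, Mthfd2, Scd4 and Vwa8), and without the WT library RT10 1 was (Scd4). Without rescaling 4 were called (Fbp2, Scd4, Scn4b and Vwa8), and after scaling to the sum of nuclear genes 5 were, with Acaa2 added.

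The values of the leading genes in both genotypes stand as follows. Mthfd2 rose by 1.85 in iKO and 0.69 in WT (difference 1.16, adjusted p = 0.414 for the difference), Scn4b by 1.43 and 0.60 (0.83, adjusted p = 0.143), Fbp2 by 1.21 and 0.68 (0.53, adjusted p = 0.143) and Acot1 by 2.06 and 1.22 (0.84, adjusted p = 0.4). Pdk4 rose by 2.97 in iKO and 1.72 in WT (difference 1.25, adjusted p = 1). None of these differences passed the adjustment over all genes. Tfrc had a larger value in WT (1.90 against 1.37), and Abat nearly the same (-1.58 and -1.51).

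The levels of PPAR-alpha targets in both genotypes are given as a description, since no gene passed the test of the difference. On chow 34 of the 35 targets had a lower mean in iKO than in WT hearts, with a median ratio of 0.765, and on HFD 30 of 35 did, with a median ratio of 0.881. The chow values without RT4 and RT7 were 34 of 35 and 0.789. Pdk4 was at 44.7 ± 21.3 FPKM in iKO and 98.9 in WT on chow, and at 346 ± 116 and 326 on HFD. Acot1 was at 2.87 and 7.17 on chow and at 15.1 and 17.9 on HFD. For both genes the iKO mean was below the WT mean on chow and nearer to it on HFD. The Pdk4 chow groups overlapped, with deposited FPKM of 26.45 to 80.21 in iKO and 49.02 to 147.82 in WT. Both genes are among the largest iKO rises, a choice that favours low iKO values on chow. The difference between genotypes on chow was not tested. The median ratio of HFD to chow over the 35 targets was 1.49 in iKO and 1.25 in WT. Of the 35, 20 had an unadjusted limma p under 0.05 for the difference, against the 4.2% of all genes given above. The list was chosen with earlier results of these data known, so this count is a description and not a test of the list. For mitochondrial fatty acid oxidation, which shares many members with this list, the median ratios of iKO to WT were 0.810 on chow and 0.880 on HFD (24 and 22 of 25 lower).

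Stress-response genes lay near the share over all genes on chow. Of the 26 genes 12 were lower in iKO than in WT on chow, with a median ratio of 1.02, and 8 on HFD, with a median ratio of 1.15. Mthfd2 was at 0.815 FPKM in iKO and 0.821 in WT on chow, and at 5.73 and 1.95 on HFD. Asns, Trib3 and Atf5 were likewise near their WT level on chow (0.841 and 0.779, 1.46 and 1.37, 15.5 and 14.3) and higher on HFD (1.96 and 1.03, 2.52 and 1.69, 27.5 and 17.7). Mthfd2 and these genes were named by their small p for the diet in iKO. That choice favours high iKO values on HFD and low ones on chow. Of the 26 genes 4 had an unadjusted p under 0.05 for the difference between genotypes, and none passed the adjustment. On chow without RT4 and RT7 15 of the 26 were lower in iKO than in WT, with a median ratio of 0.980. Branched-chain amino acid genes were lower in iKO on both diets (21 of 21 each), with median ratios of 0.903 on chow and 0.884 on HFD. The chow values of that list without RT4 and RT7 were 19 of 21 and 0.940.

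**Figure D5:**
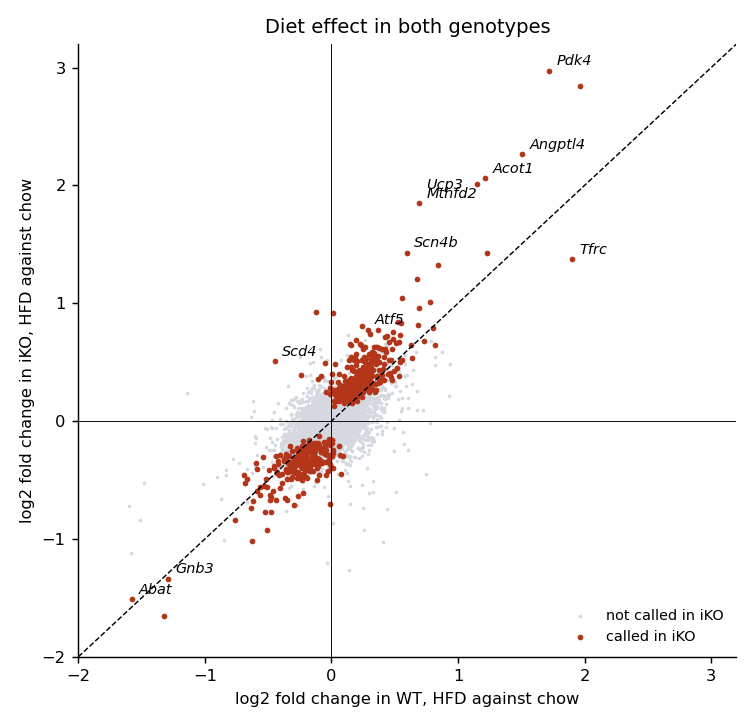
Log2 fold change of HFD against chow in WT (x axis) and iKO hearts (y axis) for the genes tested, with the line of equality; coloured points are the genes called in iKO. Pdk4, Acot1, Mthfd2 and Scn4b lie above the line, Tfrc below it, and Scd4 has opposite signs (0.51 in iKO, -0.45 in WT).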

How the data were processed

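Polyadenylated RNA of frozen left ventricle from 20 mice was sequenced as 100-nt single reads. The authors deposited FPKM per gene, 1 table per library, and the submitters' processing notes name Bowtie2, RSEM, DESeq2 and the build mm9, with no versions. The identifiers matched GENCODE M21 on GRCm38 (24938 of 25052), so coordinates here are those of GRCm38. Read counts were not used here; assigned reads were estimated from the steps between low FPKM values, and low genes are the less precise. FPKM was divided by a median-of-ratios factor per library, since mitochondrial transcripts take a share that differs by diet. Genes with at least 0.5 FPKM in at least 5 of 20 libraries were tested on log2(FPKM + 1), computed here from the deposited values, with limma 3.58.1 (R 4.3.3; trended and robust variance, 4 group means, Benjamini-Hochberg over 12775 genes, called at an adjusted p under 0.05). All adjusted p-values are from limma. Single measures were compared by two-sided exact permutation tests of 5 against 5 libraries (scipy 1.17.1). No sample was dropped or imputed, and no pair of libraries held identical values. The labels give 5 mice per genotype and diet.

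On simulated data for HFD against chow in iKO over 12775 genes, 60% of 1.25-fold, 86% of 1.5-fold, 94% of 2-fold and 100% of 3-fold changes were recovered, and 4.49% of calls were false. The noise was normal and independent between genes, without shifts shared within a library. Changes were added to log2(FPKM + 1), in 50 genes per fold with a mean of at least 1. The shares describe that setting only.

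Genes were named by rule: fixed genes of malonyl-CoA and fatty acid metabolism, the 15 largest rises and 15 largest falls among called genes with a mean log2 of at least 1, up to 4 called members per list by smallest p, and the 5 smallest p of the difference between genotypes. Other genes named were chosen after their values were seen. The comparison, its members and the lists were chosen with earlier results of these data known. Promoters are from RefSeq (GRCm38.p6). Alternatives were other scalings, pseudocounts, filters, variance models, each genotype fitted alone, and each library left out. Leaving out RT4 with RT7, and RT4 with RT1 (the libraries with atrial transcripts), was added after seeing the data. Some named genes are not reported here.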

Additional observations from a re-analysis of the deposited data

Results flagged for a closer look

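In 18 of 454 sets of 5 libraries checked (a named gene in 1 iKO group), 1 library stood apart from the other 4 by more than Dixon's 95% critical value of 0.71 for the gap divided by the range. Chance alone marks about 1 set in 20, which is more than the number found, so the total is no excess. How the flags fall among the libraries was not tested, and no pattern is read from them. All values are rescaled FPKM.

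On chow, RT4 was the library that stood apart for 9 genes and lay below the rest for each: Btnl9 at 7.49 (others 9.64 to 10.6), Fbxo32 at 19.6 (24.4 to 26.2), Gcdh at 20.7 (25.4 to 27.0), Hadh at 244 (269 to 277), Lpl at 1001 (1206 to 1294), Mccc1 at 44.3 (50.0 to 51.5), Pink1 at 197 (238 to 256), Slc27a1 at 27.1 (34.1 to 35.1) and Sod1 at 193 (201 to 204). RT7 stood above the rest for H2-DMb1, a chaperone of MHC class II, at 3.24 (1.81 to 2.13) and for Pcx at 7.89 (6.29 to 6.72). RT6 lay below for Slc2a1 at 3.07 (4.25 to 4.66).

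On HFD, RT17 lay below the rest for Mthfd2 at 2.51 (others 6.0 to 7.11), for Aldh1l2 at 2.04 (3.08 to 3.50) and for Ppard at 5.33 (6.46 to 6.65). The first 2 are mitochondrial folate enzymes, and Mthfd2 in RT17 still lay above every chow library. RT13 lay below for Cirbp at 15.1 (23.6 to 25.7), a cold-inducible RNA-binding protein. RT11 stood above for Abcd3 at 44.3 (41.1 to 41.9) and RT15 for Tnnt1 at 5.99 (4.77 to 5.05).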

How the results depend on the processing

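For HFD against chow in iKO, 328 genes were higher and 232 lower. Without rescaling the counts were 211 and 1068, with each genotype fitted alone 213 and 129, and without the filter on low values 133 were lower; without RT4 and RT7 184 were higher. Leaving out single libraries gave 135 (without RT13) to 294 (without RT19) lower and 234 (without RT11) to 391 (without RT19) higher. For the difference between genotypes, with 0 genes called, 4 were higher without rescaling and 5 after scaling to the sum of nuclear genes, and single libraries left out gave 0 to 4 (1 without RT10, 4 without RT17). In WT, with 178 higher and 149 lower, the counts were 98 and 929 without rescaling, 111 and 93 without the filter, 416 and 396 with quality weights, and 106 to 200 higher and 87 to 188 lower leaving out single libraries (RT12 and RT19 at the ends; 114 higher without RT1, 96 lower without RT5 and 97 without RT8 or RT14). No called log2 fold change of a named gene changed sign under these settings, but without rescaling falls outnumbered rises in both genotypes. The cause was not tested, beyond fewer samples or more genes tested where a setting is made so. Of the 560 genes, 440 remained called without rescaling, 544 with the upper quartile, 552 with a pseudocount of 0.1, 322 with the genotype fitted alone and 292 without RT4 and RT7. Depth limits genes near 1 FPKM most, with RT7 the shallowest library. No paired analysis was possible because the labels give no replicate number that groups share.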

Other observations

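Genes outside the lists above also changed in iKO hearts on HFD, and those given here were chosen after their values were seen (limma, adjusted over all genes). Several mitochondrial carriers rose: Slc25a22, a glutamate carrier, by 0.81 on the log2 scale (adjusted p = 0.000317; 0.24 in WT), Slc25a34 by 0.61 (adjusted p = 0.000156) and Slc25a42, which imports CoA, by 0.43 (adjusted p = 0.00576). Pank1, a kinase of CoA synthesis, rose by 0.46 (adjusted p = 0.00144). Acsf2, an acyl-CoA synthetase, rose by 0.65 (adjusted p = 1.38e-05; 0.16 in WT) and Retsat, a retinol saturase, by 0.61 (adjusted p = 3.15e-05). Prkag2, a regulatory subunit of AMP-activated kinase, rose by 0.49 (adjusted p = 0.00107).

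Further single genes rose, with no list or enrichment test behind them. Psap, the precursor of the saposins, rose by 0.30 (adjusted p = 0.000382), Grn, progranulin, by 0.32 (adjusted p = 0.00474, and 0.0573 without rescaling) and Nceh1, a cholesteryl ester hydrolase, by 0.44 (adjusted p = 1.91e-05). Npc1, which exports cholesterol from lysosomes, rose by 0.43 and the efflux pump Abca1 by 0.55, and both calls are lost without RT4 and RT7. Among enzymes of amino acid breakdown outside the branched chains, Kyat3, of the tryptophan pathway, fell by 0.53 on the log2 scale (adjusted p = 1.04e-05) and Gcdh, of lysine and tryptophan breakdown, by 0.36 (adjusted p = 0.00111). Whether any of these responses differs from that in WT hearts is not shown, since no gene passed the test of the difference over all genes.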
